A study of Rattus norvegicus with 107 samples.

Results

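Slc16a1, Bdh1, Oxct1 and Acat1 encode the route by which a tissue takes up ketone bodies and burns them, and their transcripts were followed in the brain and colon of suckling rats. The genes were chosen by name from this route, with earlier results of these data known. A gene counted as measured where the array's annotation gave a probe its symbol. That held for 3 of the 4, Slc16a1, Bdh1 and Acat1, with 1 probe each, out of 13337 gene symbols on 22523 probes. Oxct1, the gene of the mitochondrial CoA transferase that activates acetoacetate, has no probe under its symbol and was not analysed here.

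Ketone bodies are made by the liver from fatty acids and reach other organs in the blood. SLC16A1, also called MCT1, is a plasma membrane carrier of monocarboxylates, among them acetoacetate, beta-hydroxybutyrate, lactate and butyrate. Inside mitochondria BDH1 oxidizes beta-hydroxybutyrate to acetoacetate, OXCT1 turns acetoacetate into acetoacetyl-CoA with succinyl-CoA as the donor, and ACAT1 splits acetoacetyl-CoA into acetyl-CoA for the citric acid cycle. Milk is rich in fat, and the brain of the suckling rat is known as a user of ketone bodies. In the colon the same carrier is known for taking up butyrate made by gut bacteria, and colon epithelium can itself form ketone bodies.

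The samples were untreated Sprague Dawley pups, with no genetic change or agent in any group. They were taken on embryonic day 21 (E21) and on postnatal days (PND) 1, 2, 3, 5, 7, 10, 15 and 22. Brain, as the right hemisphere, gave 54 samples, 6 at each of the 9 ages, and colon gave 53, with 5 at E21 and 6 at every later age. By the study's methods the E21 pups were delivered by Caesarean section from a single dam, litters were evened out between dams at birth, and intestinal tissue was rinsed before freezing, so that each colon sample is a mixture of epithelium, muscle, nerve and vessel. The E21 samples thus share a single litter, and in every comparison with E21 age cannot be told apart from litter. For the later ages nothing in the labels says which pups shared a litter. The p-values measure the spread between these samples, part of which may be technical.

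Below are the 250 bases before the annotated start of each measured gene, 5′ to 3′ on the gene's own strand, from RefSeq on build GRCr8, with capitals for matches to the motifs named after them. They are shown because Slc16a1 and Bdh1 passed the test together in several comparisons in which Acat1 did not.
Slc16a1, chr2:194812410-194812659, + strand: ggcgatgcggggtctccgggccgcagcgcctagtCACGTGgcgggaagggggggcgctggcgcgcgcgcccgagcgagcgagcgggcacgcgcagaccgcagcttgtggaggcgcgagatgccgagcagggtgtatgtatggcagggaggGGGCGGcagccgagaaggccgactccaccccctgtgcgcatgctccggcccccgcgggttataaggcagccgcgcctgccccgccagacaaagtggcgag
Bdh1, chr11:82842637-82842886, - strand: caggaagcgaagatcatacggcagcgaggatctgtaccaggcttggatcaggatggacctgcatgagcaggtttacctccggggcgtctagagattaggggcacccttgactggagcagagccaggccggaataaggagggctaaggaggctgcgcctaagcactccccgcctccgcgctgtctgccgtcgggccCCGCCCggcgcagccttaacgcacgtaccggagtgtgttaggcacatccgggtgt
Acat1, chr8:62905043-62905292, - strand: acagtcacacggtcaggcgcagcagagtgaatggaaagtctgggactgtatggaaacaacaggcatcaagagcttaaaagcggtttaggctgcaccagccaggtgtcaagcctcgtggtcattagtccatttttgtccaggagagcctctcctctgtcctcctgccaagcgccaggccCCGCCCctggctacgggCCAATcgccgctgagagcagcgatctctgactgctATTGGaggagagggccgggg
The Slc16a1 and Bdh1 windows lie inside the outer bounds of their genes, at chr2:194805556-194832966 and chr11:82806125-82848133, since the outer bounds reach further upstream than these starts. Acat1 spans chr8:62876003-62905080. Bases G and C made up 74% of the Slc16a1 window, 62.8% of the Bdh1 window and 58.4% of the Acat1 window. Matches were searched on both strands for 8 motifs. The GC box GGGCGG was found in all 3 windows, and in 30.5% of all 33469 such windows in the table. The E-box CACGTG was found in the Slc16a1 window alone of these 3, and in 5.59% of all windows. CCAAT was found in the Acat1 window, once on each strand, and in 34% of all windows. The remaining 5 matched nowhere in the 3 windows. They were a direct repeat of AGGTCA with any base N between the copies (0.0508% of all windows), TCAAGGTCA (0.388%), TGACGTCA (1.59%), the NRF1 palindrome of GCGCA followed at once by its reverse complement (0.762%) and TATAAA (12.9%). A match says that these letters are present and no more.

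Levels are given as normalized signal, the probe's fluorescence after all 107 arrays were brought to a common distribution. Differences are given in log2 units with the adjusted p-value of limma, and a probe was called where that p-value was under 0.01. A probe counted as detected in a sample where the scanner software's detection p-value was under 0.05, which corresponded to a normalized signal of 65.6 to 76.9. All 3 genes were detected in all 54 brain and all 53 colon samples. Of the 22523 probes, a median of 10943 per array were detected in brain and 11343 in colon. The shares of all probes given beside the results below count undetected probes too, so they do not compare like with like. Shares among probes detected as these 3 genes were are not given. Signals of different probes are not comparable with each other, only the same probe between samples. Overlap of samples is given as a description, and the share of all probes without overlap was not computed. Exact permutation p-values, of the difference in mean log2 signal, are not adjusted over probes.

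The median deposited signal of an array ranged between 42.9 and 132 in brain and between 43.6 and 123 in colon. Brain samples carried neuron markers and colon samples carried epithelium and smooth muscle markers at every age. The E21 colon sample with replicate number 4 also carried brain markers. Its 8 neuron markers summed to 9794, against 2435 to 2760 in the other E21 colon samples. Of 142 probes that were over 3 log2 units higher in E21 brain than in E21 colon, it had the highest signal of the 5 for 138. Its oligodendrocyte markers summed to 1270, above the 540 to 636 of the E21 brain samples. Tests of the 3 genes that rest on E21 colon are therefore given with and without it. Correlations of age means in colon include it. The PND15 brain sample with number 6 had colon epithelium markers summing to 976, against 588 to 653 in the other PND15 brain samples.

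**Figure D1:**
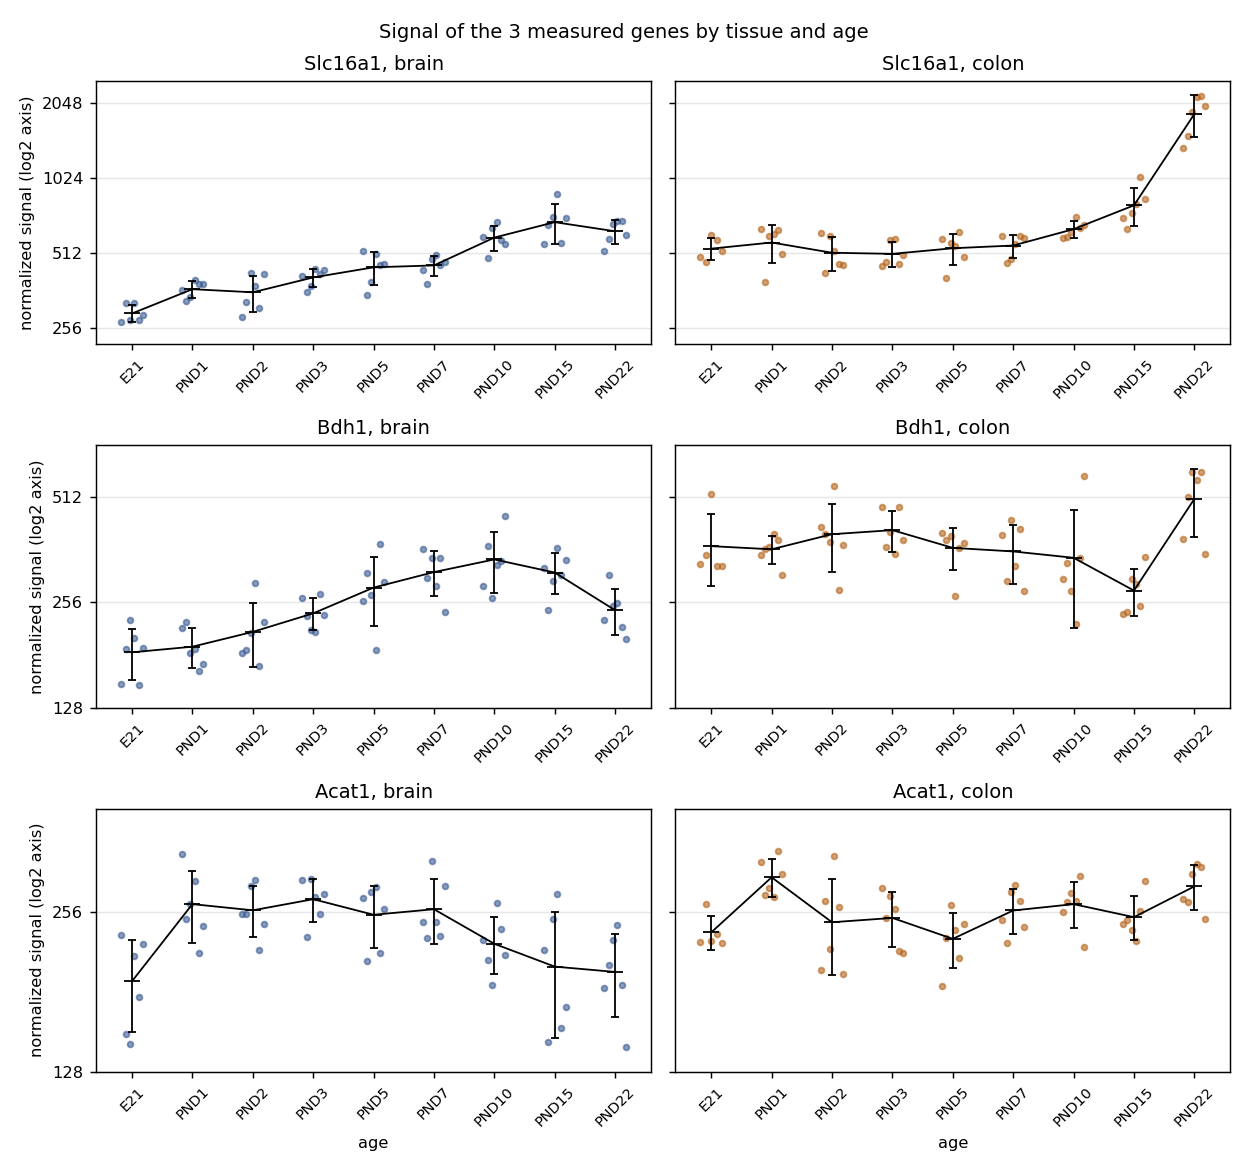
Normalized signal (vertical axis, log2 scale) of Slc16a1, Bdh1 and Acat1 at the 9 ages (horizontal axis) in brain (left) and colon (right); points are samples, black lines join the means and bars are the SD. Slc16a1 climbs in brain to 679 at PND15 and in colon jumps to 1842 at PND22, Bdh1 peaks in brain at 339 at PND10, and Acat1 stays between 189 and 297 on average in both tissues.

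All 3 genes changed over the 9 ages in both tissues, where 35.4% of all probes, detected or not, were called in brain and 36.7% in colon. The change was clearest for Slc16a1, with an adjusted p of 3.4e-17 in brain and 1.6e-19 in colon by limma's F test. For Bdh1 it was 4.7e-09 in brain and 0.0019 in colon. For Acat1 it was 1.7e-04 in brain and 0.0065 in colon, and the colon call was lost on leaving out any of 8 samples, namely numbers 1, 5 or 6 of PND1, 1 or 5 of PND5 and 3, 4 or 5 of PND22, with adjusted p up to 0.0186. Without the E21 colon sample with brain markers the colon values were 1.9e-19 for Slc16a1, 7.9e-04 for Bdh1 and 0.0092 for Acat1.

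In brain, Slc16a1, the carrier, rose through the suckling period and reached 2.01-fold its E21 level by PND10. At E21 it ran between 271 and 321, with a median of 282. At PND3 it ran between 358 and 440, with a median of 417. At PND10 the 6 samples lay between 486 and 681 around a median of 584, so that every PND10 sample was above every sample of PND3 and of E21. The highest mean came at PND15, 679 ± 122 (SD, n = 6), with 624 ± 68.3 at PND22. The PND10 minus E21 difference was 1.01 ± 0.10 (SE), with adjusted p = 3.3e-12 in limma and an exact two-sided permutation p of 0.00216, the smallest that 6 against 6 samples can give. Between PND10 and PND3 the difference was 0.53 ± 0.10 (adjusted p = 6.1e-05). After PND10 no step passed the test: the PND15 minus PND10 difference was 0.20 and the PND22 minus PND15 difference was -0.11. With the 9 ages in order of their means, the sample ranges of all 8 neighbouring pairs overlapped.

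Bdh1, the dehydrogenase that starts the oxidation of beta-hydroxybutyrate, rose in brain over the same days and then came back down. It ran between 149 and 228 at E21, around a median of 189, and between 211 and 271 at PND3, around 235. At PND10 the samples lay between 264 and 452 with a median of 332, and none of them overlapped with E21. At PND22 the range was 201 to 306 with a median of 240. The PND10 minus E21 difference was 0.87 ± 0.13 (adjusted p = 2.7e-07) and the PND10 minus PND3 difference 0.49 ± 0.13 (adjusted p = 0.0047). That second call was lost on leaving out number 3 or 4 of PND3 or number 2, 5 or 6 of PND10, with adjusted p up to 0.0296. The PND22 minus PND10 difference, a comparison added after the values were seen, was -0.47 ± 0.13 (adjusted p = 0.0048). It was lost on leaving out number 2 or 6 of PND10 or number 1, 5 or 6 of PND22, with adjusted p up to 0.0298, and when arrays were scaled at their 75th percentile instead (0.0123). PND22 and PND3 lay side by side, at 243 ± 36.9 and 238 ± 24.7, and their difference of 0.02 had a 95% interval of -0.24 to 0.28.

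Acat1, the thiolase of the last step, moved less. In brain it ran between 214 and 329 at PND1, around a median of 256, and between 144 and 231 at E21, around 194. The difference was 0.49 ± 0.13 (adjusted p = 0.0093). This call stood at the threshold: it was lost on leaving out number 2, 3 or 5 of E21 or any PND1 sample but number 5, with adjusted p up to 0.0445, and also with a normexp background (0.0136), with 75th percentile scaling (0.0157) and with trended robust moderation (0.0109). Acat1 had means between 253 and 270 from PND1 to PND7 and lower ones after, with 142 to 242 at PND22 and a median of 195, against 230 to 295 at PND3 and a median of 275. The PND22 minus PND3 difference was -0.47 ± 0.13 (adjusted p = 0.0028), and without number 6 of PND22 it was -0.38 (adjusted p = 0.0196).

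Set side by side in brain, 2 of the 3 genes were higher at PND10 than at E21, where 7.18% of all probes were called higher, and 2 of 3 were higher at PND10 than at PND3, where 4.85% were. At PND22 against PND3, Slc16a1 was higher by 0.61 (adjusted p = 8.0e-07) and Acat1 lower, against 11.7% of probes called higher and 12.2% lower. At PND1 against E21, 1 of 3 was called higher, Acat1 (1.47% of probes). Slc16a1 was higher by 0.32 there and was not called (adjusted p = 0.0323 in limma). Its samples did not overlap between these ages (exact two-sided permutation p = 0.00216). Between PND22 and PND10, 1 of 3 was called lower (7.27% of probes). None of the 3 was called in brain between PND3 and PND1, PND15 and PND10 or PND22 and PND15, where 2.15%, 7.78% and 3.23% of probes were. Across the 9 age means in brain, Slc16a1 and Bdh1 correlated with r = 0.79, Slc16a1 and Acat1 with r = -0.32, and Bdh1 and Acat1 with r = -0.02. These points share their samples and are a description of 9 means.

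In colon each comparison of ages that called any of the 3 genes set PND22 against an earlier age. For Slc16a1, the 5 samples at E21 gave 491, 472, 601, 575 and 519, the third of them being the sample with brain markers, and the PND7 samples ran between 466 and 597 with a median of 571. At PND10 the range was 589 to 713 around a median of 632, and at PND15 it was 635 to 1027 around 774. At PND22 the 6 samples gave 1350 to 2180 with a median of 1933, and the lowest of them was above every sample of every earlier age. The PND22 minus PND15 difference was 1.21 ± 0.12 (adjusted p = 5.6e-12; exact two-sided permutation p = 0.00216), a 2.31-fold rise, and leaving out any sample of either age kept it between 1.15 and 1.30. Of the steps before it, PND15 minus PND10 was 0.30 (adjusted p = 0.169) and PND10 minus PND3 was 0.33 (adjusted p = 0.0574). In that last step every PND10 sample lay above the PND3 range of 453 to 579 (exact two-sided permutation p = 0.00216).

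Bdh1 in colon was also higher at PND22 than at PND15, the ages of its highest and lowest colon means. At PND22 it ran between 351 and 603 with a median of 542, against 237 to 344 at PND15 with a median of 270, and the groups did not overlap. The difference was 0.85 ± 0.16 (adjusted p = 2.5e-05). The PND22 level was 505 ± 111 (SD, n = 6), and that of PND3 was 411 ± 55.4. Their difference of 0.27 did not pass the test (adjusted p = 0.206, 95% interval -0.04 to 0.59). At E21 the samples gave 330, 350, 522, 325 and 324, and the high one is the sample with brain markers. At PND10 the samples lay between 222 and 586 around a median of 315, with number 6 at the top. PND22 minus PND10, again added after the values were seen, was 0.59 ± 0.16 (adjusted p = 0.0027), and it was lost without number 3 or 4 of PND10 or number 3 or 5 of PND22, with adjusted p up to 0.0190. Slc16a1 was higher by 1.51 in that comparison (adjusted p = 2.9e-15), so that 2 of 3 genes were called where 9.78% of probes were called higher.

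No comparison of ages called Acat1 in colon. It ran between 273 and 333 at PND1, with a median of 292, and the E21 samples gave 225, 265, 225, 232 and 223. These groups did not overlap, but the difference of 0.34 ± 0.10 had an adjusted p of 0.0208, and 0.0453 without the sample with brain markers. At PND22 the range was 248 to 315 with a median of 286, against 225 to 293 with a median of 245 at PND15, a difference of 0.19 (adjusted p = 0.147).

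At PND22 against PND15 in colon, 2 of the 3 genes were higher, where 9.13% of all probes were called higher, and at PND22 against PND3 it was Slc16a1 alone (1.85, adjusted p = 9.3e-19; 11.7% of probes higher). None of the 3 was called between PND1 and E21, PND3 and PND1, PND10 and PND3, PND15 and PND10 or PND10 and E21, where 3.73%, 1.72%, 6.4%, 1.94% and 13.5% of probes were. PND1 minus E21 in colon was 0.07 for Slc16a1 and -0.0086 for Bdh1, and without the E21 sample with brain markers it was 0.11 (adjusted p = 0.699) and 0.12 (adjusted p = 0.764). The PND10 minus E21 differences in colon were 0.26 for Slc16a1, -0.15 for Bdh1 and 0.17 for Acat1. Without the E21 sample with brain markers, they were 0.31 (adjusted p = 0.0920), -0.02 (adjusted p = 0.955) and 0.16 (adjusted p = 0.340). Across the 9 age means in colon, Slc16a1 and Bdh1 correlated with r = 0.42 and Slc16a1 and Acat1 with r = 0.51, again as a description.

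**Figure D2:**
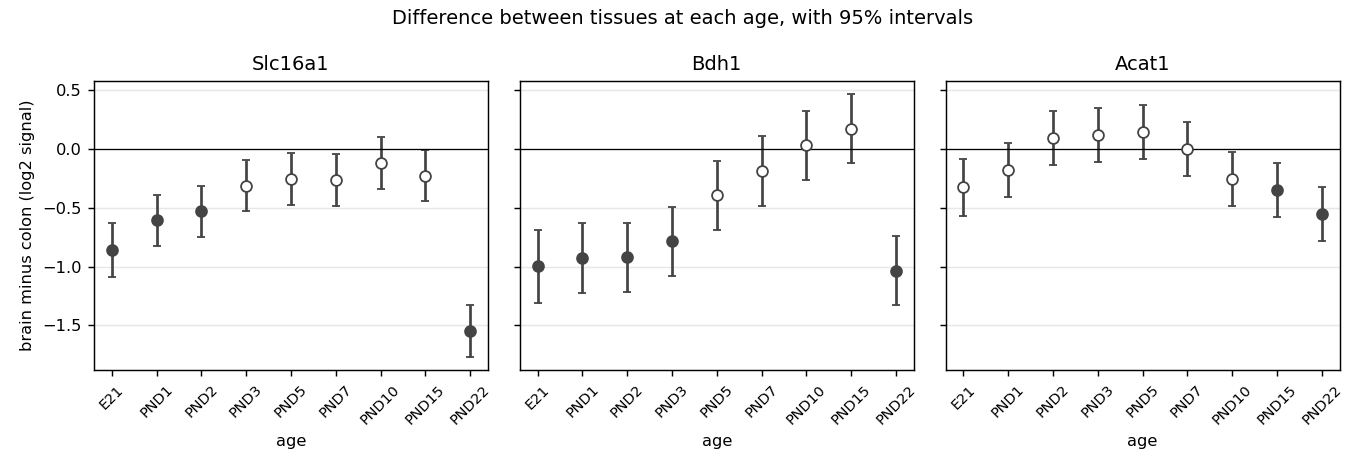
Brain minus colon difference in log2 signal (vertical axis) of each gene at the 9 ages (horizontal axis), with 95% intervals; filled points have an adjusted p under 0.01 and open points do not. Slc16a1 and Bdh1 start lower in brain at E21 (-0.861 and -0.996), come close to 0 by PND10, and lie lower again at PND22 (-1.55 and -1.04).

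Differences between the tissues at each age came from the same samples, so their timing is not independent of the age changes. At E21, Slc16a1 had 271 to 321 in brain, against 472 to 601 in colon, and Bdh1 had 149 to 228 in brain, against 324 to 522 in colon, with no overlap for either. The brain minus colon difference was -0.861 ± 0.12 for Slc16a1 (adjusted p = 2.5e-10) and -0.996 ± 0.16 for Bdh1 (adjusted p = 3.1e-08). Without the colon sample with brain markers these were -0.82 and -0.87, both still called. Acat1 at -0.33 was not called (adjusted p = 0.0237), nor was it without that sample (-0.34, adjusted p = 0.0291). So 2 of 3 genes were lower in brain at E21, where 15.8% of probes were, and the same count held at PND1 (17% of probes) and PND2 (17.1%). At PND3, Bdh1 was called (-0.78, adjusted p = 3.3e-06) and Slc16a1 at -0.31 was not (adjusted p = 0.0157), against 17% of probes. The Slc16a1 samples of the tissues did not overlap at that age, with 358 to 440 in brain against 453 to 579 in colon, and the difference was called with detected probes alone (adjusted p = 0.0096) and with 75th percentile scaling (-0.38, adjusted p = 0.0048).

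From PND5 to PND10 none of the 3 genes was called between the tissues, where 34.7% to 35.2% of all probes were. Bdh1 at PND5 was at -0.39 (adjusted p = 0.0244), and it was called without number 5 of the brain samples (-0.48, adjusted p = 0.0067) or without number 4 of the colon samples (-0.48, adjusted p = 0.0066). At PND10, Slc16a1 averaged 589 ± 68.6 in brain and 636 ± 47.1 in colon, and the difference of -0.12 had a 95% interval of -0.34 to 0.10. Bdh1 averaged 339 ± 67.2 in brain and 343 ± 127 in colon at that age, and the difference of 0.03 had an interval of -0.26 to 0.33. At PND15 only Acat1 was called (-0.35, adjusted p = 0.0099; 17.6% of probes lower), and that call was lost without any of number 2, 5 or 6 of the brain samples or number 1, 2, 3, 5 or 6 of the colon samples, with adjusted p up to 0.0730, and with 75th percentile scaling (adjusted p = 0.0375).

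At PND22 all 3 genes were lower in brain than in colon, where 19.3% of all probes were. Slc16a1 had 519 to 689 in brain, against 1350 to 2180 in colon, a difference of -1.55 ± 0.11 (adjusted p = 4.3e-24). Bdh1 had 201 to 306 in brain, against 351 to 603 in colon, a difference of -1.04 ± 0.15 (adjusted p = 1.7e-09). Acat1 had 142 to 242 in brain, against 248 to 315 in colon, a difference of -0.55 ± 0.12 (adjusted p = 2.4e-05). None of the 3 overlapped between the tissues.

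The change with age itself differed between the tissues. The brain change minus the colon change in PND10 minus E21 was 0.74 ± 0.16 for Slc16a1 (adjusted p = 1.7e-04) and 1.03 ± 0.22 for Bdh1 (adjusted p = 1.2e-04), against 5.65% of probes called higher. Without the colon sample with brain markers these were 0.70 (adjusted p = 7.9e-04) and 0.90 (adjusted p = 0.0011). In PND22 minus PND15 the differences were -1.32 ± 0.16 for Slc16a1 (adjusted p = 2.5e-11) and -1.21 ± 0.21 for Bdh1 (adjusted p = 2.4e-06), against 5.96% of probes called lower. In PND22 minus PND3, Slc16a1 at -1.23 and Acat1 at -0.67 (adjusted p = 5.9e-04) were called and Bdh1 at -0.25 was not, against 10.3% of probes lower. In PND1 minus E21 none of the 3 was called, and 0.524% of probes were. There the values were 0.26 for Slc16a1, 0.07 for Bdh1 and 0.15 for Acat1, and without the colon sample with brain markers 0.21, -0.062 and 0.16.

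**Figure D3:**
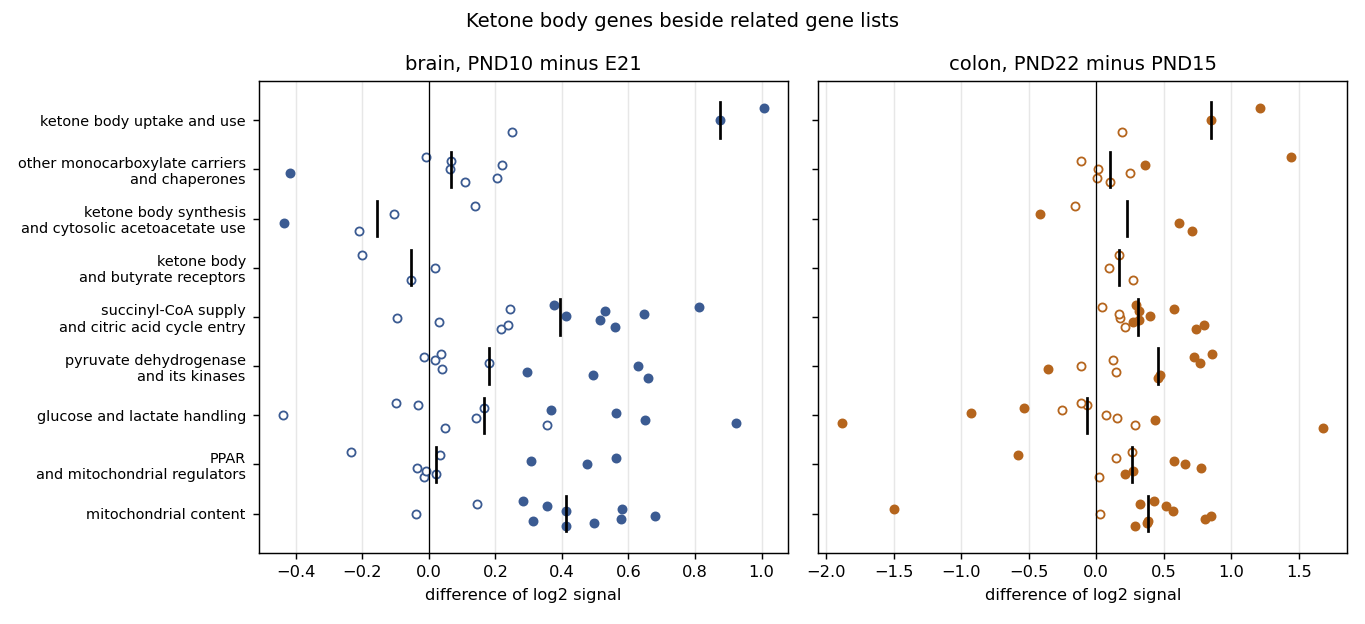
Difference in log2 signal (horizontal axis) of every measured gene of the ketone body route and of 8 related lists (rows) in brain at PND10 minus E21 (left) and colon at PND22 minus PND15 (right); filled points have an adjusted p under 0.01 and black bars mark list medians. In both panels 2 of the 3 ketone body genes are filled, and mitochondrial content lies to the right of 0 for 9 filled genes of 11.

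The genes around the route were read from 8 lists with 66 measured genes. The lists were chosen with earlier results of these data known, so their counts beside the shares of all probes are a description. In brain at PND10 against E21, 29 of these 66 were called, where 15.2% of all probes were (7.18% higher, 8.07% lower) and the median of all probes was -0.01. Mitochondrial content, a list of respiratory chain subunits, porins, a chaperonin and an adenine nucleotide carrier, had 9 of 11 genes higher and none lower, with a median of 0.41. Cycs, cytochrome c, was at 7152 ± 1151 in PND10 brain, against 4436 ± 490 in E21 brain, and Ndufs1, a complex I subunit, at 1030 ± 71.2 against 776 ± 90.9. The succinyl-CoA and citric acid cycle list had 7 of 12 higher, with a median of 0.39. Sucla2, a subunit of the succinyl-CoA ligase of that cycle, rose most clearly, to 1103 ± 135 at PND10, against 626 ± 52.5 at E21 (0.81, adjusted p = 2.8e-11). Ogdh and Sdha, a 2-oxoglutarate dehydrogenase and a succinate dehydrogenase subunit, were higher by 0.65 and 0.53.

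Genes of glucose and lactate use moved in brain too. Of 11 measured, 4 were higher at PND10 than at E21 and none lower, among them Ldhb, the heart-type lactate dehydrogenase subunit (0.92, adjusted p = 2.4e-11), Mpc1 of the mitochondrial pyruvate carrier (0.65) and the phosphofructokinase Pfkm (0.56). Of the 9 genes of pyruvate dehydrogenase and its control, 4 were higher, including the kinase Pdk2 (0.63, adjusted p = 9.4e-07) and the subunit Dlat (0.66). Of 7 measured genes of other carriers and their chaperones, none was higher and Slc16a3, known as a lactate exporter, was lower (-0.42, adjusted p = 7.4e-04). Of these 7, Slc16a4, Slc5a8 and Slc5a12 were detected in no brain sample of either age. Bsg, the chaperone that takes SLC16A1 to the membrane, was at 454 ± 33.5 in PND10 brain and 422 ± 47.8 in E21 brain (0.11, adjusted p = 0.416). Of the 4 measured genes of ketone body synthesis and cytosolic acetoacetate use, only Acat2, a cytosolic thiolase of sterol synthesis, was called, and it was lower (-0.44). The receptors Hcar2, Ffar2 and Ffar3, which sense beta-hydroxybutyrate and short-chain fatty acids, were detected in no brain sample of either age. Among 9 regulators 3 were called higher. Sirt3, a mitochondrial deacetylase, was higher by 0.56, and Ppargc1a by 0.48, though it was detected in 3 of 6 samples at E21. Ppargc1b was detected in 3 of 6 samples at PND10 and 0 of 6 at E21, so that no size is given for it. The transcription factors Ppara and Pparg were detected in no brain sample of either age.

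In colon at PND22 against PND15, 40 of the 66 genes were called, where 18.4% of all probes were (9.13% higher, 9.27% lower) and the median of all probes was 0.01. Mitochondrial content again had 9 of 11 higher, with Cycs at 9363 ± 1389 in PND22 colon, against 5215 ± 915 in PND15 colon, and Cox5a, a cytochrome oxidase subunit, higher by 0.80. The 1 gene of that list that fell was Slc25a4 (-1.50, adjusted p = 3.9e-11), an adenine nucleotide translocator known for its high level in muscle. The citric acid cycle list had 8 of 12 higher and none lower, led by Dlst (0.80) and citrate synthase, Cs (0.74). Slc5a8, a sodium-coupled carrier of butyrate and other monocarboxylates, rose to 604 ± 111 at PND22, against 226 ± 62.9 at PND15 (1.44, adjusted p = 3.9e-08). Slc16a6, which has been described as a ketone body exporter in liver, was higher by 0.36 (adjusted p = 7.9e-04). Slc16a3 was at 1364 ± 170 in PND22 colon and 1178 ± 331 in PND15 colon, a difference of 0.25 that did not pass the test (adjusted p = 0.427).

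Within the same comparison the glucose and lactate genes split. Hk2, a hexokinase, rose to 471 ± 90.7 at PND22, against 148 ± 34.4 at PND15 (1.68, adjusted p = 2.1e-15), and Mpc1 rose by 0.43. Ldhb, Pfkm and Pkm, all high in muscle or nerve, fell by 1.88, 0.92 and 0.53. Aacs and Acat2, which use acetoacetate and acetyl-CoA in the cytosol, were higher by 0.71 and 0.61, and Bdh2 was lower (-0.41, adjusted p = 0.0073), with detection in 2 of 6 samples at PND22. Of 9 regulators 5 were called higher and 1 lower. The nuclear receptor Pparg was higher by 0.77, its coactivators Ppargc1a and Ppargc1b by 0.66 and 0.57, and Ppard by 0.27, while Ppara was detected in 1 of 6 samples at PND22 and 0 of 6 at PND15. The lower regulator was Sirt5, a mitochondrial desuccinylase (-0.58, adjusted p = 5.4e-11). Of 9 genes of pyruvate dehydrogenase and its control, 5 were higher, led in size by the phosphatase Pdp2 (0.86) and the kinase Pdk3 (0.76), and the kinase Pdk1 was lower (-0.36). Ffar2, a receptor of short-chain fatty acids, was at 94.8 ± 18.8 in PND22 colon and 77.4 ± 6.26 in PND15 colon (0.27, adjusted p = 0.0895).

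**Figure D4:**
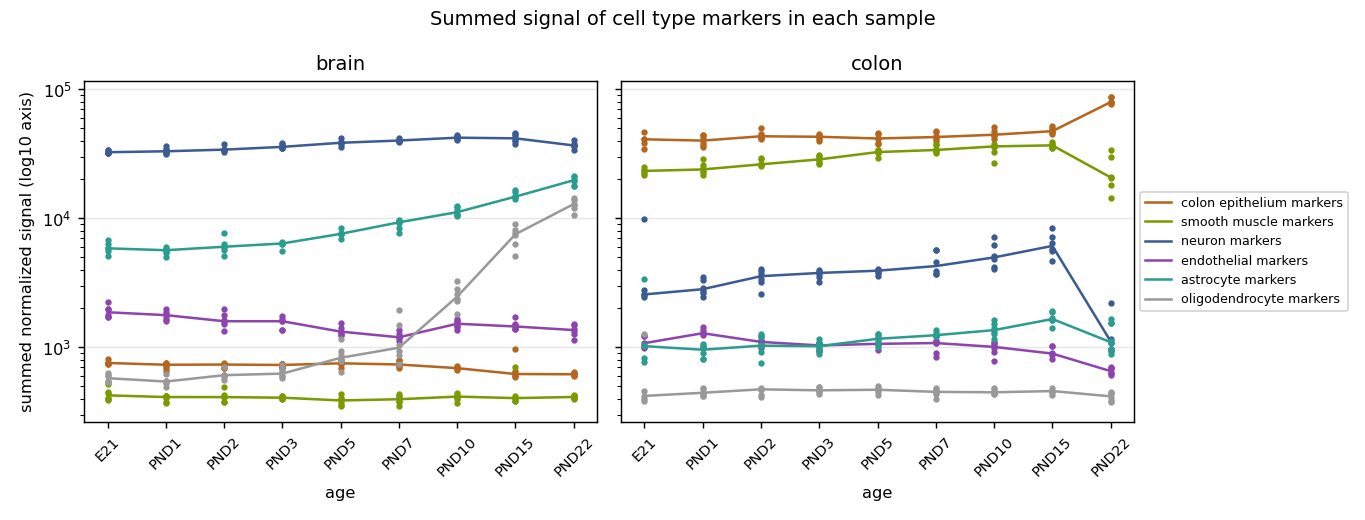
Summed normalized signal (vertical axis, log10 scale) of 6 cell type marker lists in each sample (points) at the 9 ages (horizontal axis), with lines through the medians, in brain (left) and colon (right). In colon at PND22 the epithelium sum is higher (median 79357) while the smooth muscle sum is lower (median 20716), and the E21 colon sample at 9794 on the neuron line stands far above the others.

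Cell type markers moved with these changes, and their part in the results was not tested. In bulk tissue, fewer cells of a type and less RNA per cell cannot be told apart. In colon at PND22 against PND15, 6 of 9 epithelium markers were called higher with a median of 0.79, and their summed signal ran between 76821 and 87719 at PND22, against 44902 to 52097 at PND15. Car1, a carbonic anhydrase of mature colonocytes, was at 17125 ± 2749 at PND22 and 1054 ± 410 at PND15. All 5 smooth muscle markers were lower, with a median of -1.33 and sums of 14443 to 33661 at PND22, against 34855 to 39061 at PND15. Of the 8 neuron markers 6 were lower, among them Gap43 at 442 ± 191 at PND22, against 2612 ± 596 at PND15. In this comparison 9.13% of all probes were called higher and 9.27% lower. The PND22 samples with numbers 1 and 2 had the highest smooth muscle sums of that age, 29581 and 33661, and also the lowest Slc16a1 signals, 1350 and 1498, which were still above the PND15 maximum of 1027. Their epithelium sums were 78122 and 79622, where all PND22 samples, these included, ran between 76821 and 87719. For Bdh1 the lowest PND22 signals were 351 in number 6 and 387 in number 1.

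In brain at PND10 against E21, all 6 astrocyte markers were higher with a median of 1.18, and their sum ran between 10495 and 12502 at PND10, against 5085 to 6761 at E21. Of 8 neuron markers 3 were higher and 1 lower, with a median of 0.24. The neuron sum ran between 40565 and 44352 at PND10, against 31744 to 33572 at E21 and 33638 to 40059 at PND22. Of 5 oligodendrocyte markers 4 were higher. Cnp, detected in all samples of both ages, was at 1193 ± 156 at PND10 and 333 ± 41.4 at E21, while Mobp was detected in 0 of 6 and Mog in 1 of 6 samples at E21, so that no median is given. Of 6 markers of vascular endothelium, none was higher and 1, Cldn5, was lower (-0.40, adjusted p = 0.0021). Cldn5 made up most of their sum, which ran between 1359 and 1667 at PND10 and between 1718 and 2249 at E21. Of all probes, 7.18% were called higher and 8.07% lower in this comparison. Among those 6 endothelial markers, Cdh5 was detected in no brain sample, Flt1 in 6 of 54 and Tek in 33 of 54. Colon epithelium markers summed to 588 to 976 over all brain samples, against 34424 to 87719 over all colon samples.

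The named genes whose 9 age means ran most like those of each gene were taken among probes that were called over the ages and detected, 5509 in brain and 5810 in colon. For Slc16a1 in brain they were Crtac1, Slc25a5 and Ostf1, with Pearson r of 0.99, 0.98 and 0.98, and in colon Cblc, Emp1 and Thap4, with r of 1.00, 0.99 and 0.99. For Bdh1 in brain they were Grp, Slc6a15 and Lhpp, with r of 0.99, 0.97 and 0.97, and in colon Eps8l3, Gpx2 and Sphk2, with r of 0.97, 0.95 and 0.94. Gpx2 encodes a glutathione peroxidase of gut epithelium. For Acat1 the closest were Agap1, Slc6a6 and Kit in brain, at 0.93 each, and Mief2, Mtif2 and Mbtps2 in colon, at 0.91, 0.90 and 0.89. No gene is in the closest 3 of any gene in both tissues. These values describe 9 points each and carry no test.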

How the data were processed

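The authors hybridized biotin-labelled cRNA to Illumina RatRef-12 BeadChips, and BeadStudio gave the deposited signal intensity of each probe, linear and not normalized, with a deposited detection p-value against each array's negative control beads. The authors' own normalized intensities, also deposited, were set to a common distribution by tissue and served as an alternative for comparisons of ages. The authors left out 1 colon sample of E21, which was not used here.

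Here all 107 arrays entered 1 quantile normalization, values under 1 were set to 1, and log2 was taken. The study's methods likewise used quantile normalization, log2 and a threshold of 0.01 on the analysis of variance. limma 3.58.1 in R 4.3.3 was fitted with a mean for each tissue and age, within a tissue for ages and over both for differences between tissues, and p-values were adjusted by Benjamini-Hochberg over all 22523 probes. SEs are of limma's moderated fit, intervals are 95%, and the number of arrays limits precision. Symbols came from the platform annotation: 13793 probes have 1 symbol and 8730 have none. 13752 gene IDs matched RefSeq (GRCr8). A gene with several probes was read from its brightest, which touched no gene of the route itself. The functions were tested on simulated data.

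The members and gene lists were chosen with earlier results of these data known. Named in the text are all measured members, up to 3 genes of each list per tissue by smallest adjusted p over the ages, further list genes named after their values were seen, and the 3 genes most like each member. The alternatives were background correction, scaling, normalization within a tissue, the authors' values, a detection filter, a floor of 16, trended robust moderation, a replicate block, an ordinary F test and leaving out each sample. Array chips are not named in the labels used here, so no batch could be fitted.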

Additional observations from a re-analysis of the deposited data

Results flagged for a closer look

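Of 54 groups of samples of a gene in a tissue at an age, 3 held a sample that stood far from the others by Dixon's test, and chance gives such a sample in about 1 of 20 groups. Bdh1 in colon at E21 was 522 in replicate 4, the sample with brain markers, and 350 in the nearest other. Acat1 in colon at E21 was 265 in replicate 3 and 232 in the nearest other. Bdh1 in colon at PND5 was 267 in replicate 4 and 366 in the nearest other.

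Of 12 tests of whether an age change differed between brain and colon, 6 passed. Of all probes, 0.524% were called in PND1 minus E21 and 5.65% were called higher in PND10 minus E21. The shares called lower were 5.96% in PND22 minus PND15 and 10.3% in PND22 minus PND3. Where a share is of 1 direction, it is the direction in which the genes were called, and probes called the other way are left out. The brain change minus the colon change was 0.74 for Slc16a1 and 1.03 for Bdh1 in PND10 minus E21, -1.32 for Slc16a1 and -1.21 for Bdh1 in PND22 minus PND15, and -1.23 for Slc16a1 and -0.67 for Acat1 in PND22 minus PND3.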

How the results depend on the processing

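The 10 alternatives other than leaving samples out gave 678 values for the 3 genes, of which 664 kept their direction and their side of the threshold. The brain rise of Slc16a1 at PND10 against E21 stayed between 1.01 and 1.12, its colon rise at PND22 against PND15 between 1.20 and 1.57, and that of Bdh1 in colon between 0.84 and 1.00. By the ordinary F test, Acat1 over the ages in colon had an adjusted p of 0.0101. Under 75th percentile scaling 3 differences that were not called changed sign: Acat1 PND3 minus PND1 in brain (-0.024), Bdh1 PND1 minus E21 in colon (0.084) and the Bdh1 brain change minus colon change in PND1 minus E21 (-0.020). That scaling also changed counts among the 66 related genes: in brain to 2 (6 in the report's fit) for PND1 minus E21, 1 (2) for PND3 minus PND1 and 5 (11) for PND15 minus PND10, and in colon to 1 (2) for PND15 minus PND10 and 15 (24) for PND10 minus E21. In the report's fit 1.47% of all probes were called higher in the first of these comparisons. In the others 2.15%, 7.78%, 1.94% and 13.5% were called. Shares of all probes under that scaling are not given, so a change over the whole array cannot be told apart. Slc16a1 brain minus colon at PND3 was called with that scaling (-0.38) and with detected probes alone (-0.31), which gave 6 related genes in brain PND3 minus PND1. The cause was not tested.

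Leaving out each sample in turn gave 1494 values, 1430 of them unchanged in direction and call. Acat1 over the ages in colon had adjusted p from 6.9e-04 to 0.0186, and the counts of related genes ran from 2 to 4 for PND3 minus PND1 in brain and from 6 to 12 for PND1 minus E21 in colon. With no sample left out, 2.15% and 3.73% of all probes were called in these comparisons. Acat1 brain minus colon at E21 ran from -0.39 to -0.25 and was called in 1 of these fits, and Bdh1 brain minus colon at PND5 was called in 2 of its fits (-0.48 in each). Among differences that were not called, signs turned within -0.10 to 0.087 for Acat1 PND22 minus PND15 in brain, -0.019 to 0.10 for Acat1 PND3 minus PND1 in brain, -0.059 to 0.036 for Acat1 brain minus colon at PND7, -0.050 to 0.12 for Bdh1 PND1 minus E21 in colon, -0.046 to 0.075 for Bdh1 PND22 minus PND3 in brain, -0.081 to 0.20 for Bdh1 brain minus colon at PND10, and -0.062 to 0.13 for the Bdh1 brain change minus colon change in PND1 minus E21.

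The replicate numbers recur at every age and in both tissues. Deviations of the brain and colon samples of an age and number correlated with a median r of 0.30 over 6338 probes, with 47 of 53 pairs over 0.1 and the lowest at -0.15, and 43 of 53 colon samples correlated best with the brain sample of their own number, a hint from the data only. With the number as a replicate block, 91 of 93 results kept their call. That block was the number alone, shared by all ages, so it did not pair the brain and colon samples of an age. Slc16a1 PND1 minus E21 in brain (0.32) came to an adjusted p of 0.0095, and Slc16a1 brain minus colon at PND3 (-0.31) to 0.0032. Averaging the probes of a gene was not run, as each of the 3 genes has 1 probe.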
